A study of Mus musculus with 9 samples.

Results

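A group of 15 genes was low in the mouse cornea at E14.5 (E counts days of embryonic development) and higher both before it, in the periocular neural crest (pNC) at E10.5, and after it, in the cornea at E16.5. They were chosen by their own values. A gene was taken when its mean FPKM (RNA fragments scaled to the length of the transcript and to the mapped fragments of the sample) was at least 10 at E10.5 and at E16.5, and when both of these means were at least 1.5 times the E14.5 mean. Of 19369 genes listed in at least 1 sample, 5968 reached the minimum level at both stages and 15 of these, or 0.251%, met the whole rule. They comprised 13 protein-coding genes and 2 small nucleolar RNA (snoRNA) genes. With E14.5 replicate 1 left out, 13 of the 15 still met the rule, and these were the 13 protein-coding genes.

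The samples came from wild-type C57BL/6 mouse embryos, with 3 samples per stage and 9 in all, each made from the pooled tissue of several eyes. At E10.5 the tissue was periocular mesenchyme, freed of ectoderm, lens vesicle and optic cup after dispase treatment, and at E14.5 and E16.5 it was dissected cornea. The E10.5 samples therefore lacked the surface ectoderm from which the corneal epithelium arises, while the corneas held epithelium, stroma and endothelium together. In such bulk samples, fewer cells of a type and less RNA per cell cannot be told apart. Each sample held between 8745161 and 9069023 expected counts in total. The labels and methods name the samples of a stage as biological replicates.

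The cornea is built from surface ectoderm, which forms the epithelium, and from neural crest cells that migrate between the ectoderm and the lens and form the stromal keratocytes and the endothelium. Secreted Wnt antagonists, retinoic acid from the surrounding eye tissues and the composition of the extracellular matrix are all known to act on these crest cells. The genes with a dip included members of each of these systems, namely matrix genes (Tgfbi, Col9a1), regulators of Wnt signaling (Sfrp1, Sfrp2, Tcim) and carriers of retinoic acid and fatty acids (Crabp1, Fabp5). The others were genes of detoxification and glutamine synthesis (Gsta4, Glul), genes known to respond to hormones or stress (Fkbp5, Gadd45g), Frmd6, Tstd3 and the snoRNAs Snord100 and Snora64.

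Promoter windows were available for 8 of the 13 protein-coding genes, from 250 bases before to 50 bases after a transcription start in RefSeq (GRCm38.p6). No promoter is shown for Gsta4, Sfrp1, Fabp5, Tcim and Tstd3. Windows are printed 5′ to 3′ on the strand of the gene for the matrix genes Tgfbi and Col9a1, the retinoic acid carrier Crabp1, the Wnt antagonist Sfrp2 and the hormone-responsive Fkbp5, as examples of the systems named. Those of Gadd45g, Glul and Frmd6 were searched for motifs and are not shown. Capitals mark each match, on either strand, to the motifs searched. The TATA box was searched as TATAAA and the GC box with the letters GGGCGG. The E box was searched as CACGTG, the core of the cAMP response element with the letters TGACGT, and the CCAAT box by the letters of its name. Tgfbi lies at chr13:56609586-56639359 and its window at chr13:56609336-56609635 on the plus strand. Crabp1 lies at chr9:54764748-54773110 and its window at chr9:54764498-54764797 on the plus strand. Col9a1 lies at chr1:24177589-24252738 and has 2 windows on the plus strand, an upstream one at chr1:24177360-24177659 and a downstream one at chr1:24194953-24195252. Sfrp2 lies at chr3:83765750-83774314 and its window at chr3:83766071-83766370 on the plus strand. Fkbp5 lies at chr17:28398753-28486149 and its window at chr17:28486100-28486399 on the minus strand.
Tgfbi: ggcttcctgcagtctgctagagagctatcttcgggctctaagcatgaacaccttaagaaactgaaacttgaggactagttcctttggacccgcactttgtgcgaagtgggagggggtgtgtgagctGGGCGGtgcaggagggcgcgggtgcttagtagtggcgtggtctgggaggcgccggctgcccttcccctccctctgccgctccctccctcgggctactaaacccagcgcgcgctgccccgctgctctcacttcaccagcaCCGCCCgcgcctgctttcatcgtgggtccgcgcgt
Crabp1: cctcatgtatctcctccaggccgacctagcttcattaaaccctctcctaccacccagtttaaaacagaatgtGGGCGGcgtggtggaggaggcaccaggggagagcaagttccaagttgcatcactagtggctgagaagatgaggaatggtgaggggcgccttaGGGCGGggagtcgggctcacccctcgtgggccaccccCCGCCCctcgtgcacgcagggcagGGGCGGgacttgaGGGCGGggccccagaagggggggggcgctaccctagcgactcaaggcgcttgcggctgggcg
Col9a1 upstream: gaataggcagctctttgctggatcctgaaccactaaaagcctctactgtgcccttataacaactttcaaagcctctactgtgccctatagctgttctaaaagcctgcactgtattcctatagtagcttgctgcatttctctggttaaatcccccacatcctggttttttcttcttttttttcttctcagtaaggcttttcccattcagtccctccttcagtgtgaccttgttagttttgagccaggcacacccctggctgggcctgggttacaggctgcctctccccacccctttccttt
Col9a1 downstream: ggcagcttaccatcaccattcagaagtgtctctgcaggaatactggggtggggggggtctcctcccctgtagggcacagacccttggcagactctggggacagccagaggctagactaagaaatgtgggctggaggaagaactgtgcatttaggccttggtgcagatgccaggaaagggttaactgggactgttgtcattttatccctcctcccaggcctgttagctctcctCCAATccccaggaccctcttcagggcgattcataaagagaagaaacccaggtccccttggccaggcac
Sfrp2: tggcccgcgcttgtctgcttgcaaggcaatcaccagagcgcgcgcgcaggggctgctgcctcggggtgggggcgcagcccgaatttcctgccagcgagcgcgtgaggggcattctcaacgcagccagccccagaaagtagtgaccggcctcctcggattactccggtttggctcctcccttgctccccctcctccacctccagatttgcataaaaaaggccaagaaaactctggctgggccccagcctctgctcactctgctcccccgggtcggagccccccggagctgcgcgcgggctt
Fkbp5: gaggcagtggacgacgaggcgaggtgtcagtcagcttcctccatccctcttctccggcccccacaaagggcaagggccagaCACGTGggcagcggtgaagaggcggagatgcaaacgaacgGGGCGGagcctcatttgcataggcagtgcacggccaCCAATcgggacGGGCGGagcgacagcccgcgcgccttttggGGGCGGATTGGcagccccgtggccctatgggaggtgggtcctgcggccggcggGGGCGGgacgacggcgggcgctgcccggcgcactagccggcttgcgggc
The Crabp1 window held 5 matches to the GC box and the Fkbp5 window 4, together with 2 CCAAT boxes and 1 E box. The Tgfbi window held 2 GC boxes, and the downstream Col9a1 window 1 CCAAT box. The Sfrp2 window and the upstream Col9a1 window held none of the 5 motifs. Among all 9 windows of the 8 genes, 5 held the GC box, 4 the CCAAT box, 3 the E box, 1 the TATA box and 0 the core of the cAMP response element. In all 32841 windows of the same length in the table, the shares with a match were 35.7% for the GC box, 37.4% for the CCAAT box, 7.15% for the E box, 13.6% for the TATA box and 7.51% for the core of the cAMP response element. No motif of the 5 was in every window.

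A dip was rare among the genes at this level of expression. Of the 5968 genes, 393 had their lowest mean at E14.5, 1475 their highest and 4100 a value between those of the other stages. The smaller of the E10.5/E14.5 and E16.5/E14.5 ratios had a median of 0.803 over these genes and was at least 1.5 in the 15 genes by construction. Of 683 genes whose E10.5 mean was at least 1.5 times the E14.5 mean, 51 had a higher mean at E16.5 than at E14.5 and 15 met the rule. The opposite shape, with an E14.5 mean of at least 10 and at least 1.5 times both other means, was seen in 133 genes. These were counted among all 19369 genes, with no minimum at E10.5 or E16.5, so the number is not directly comparable with the 15.

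**Figure D1:**
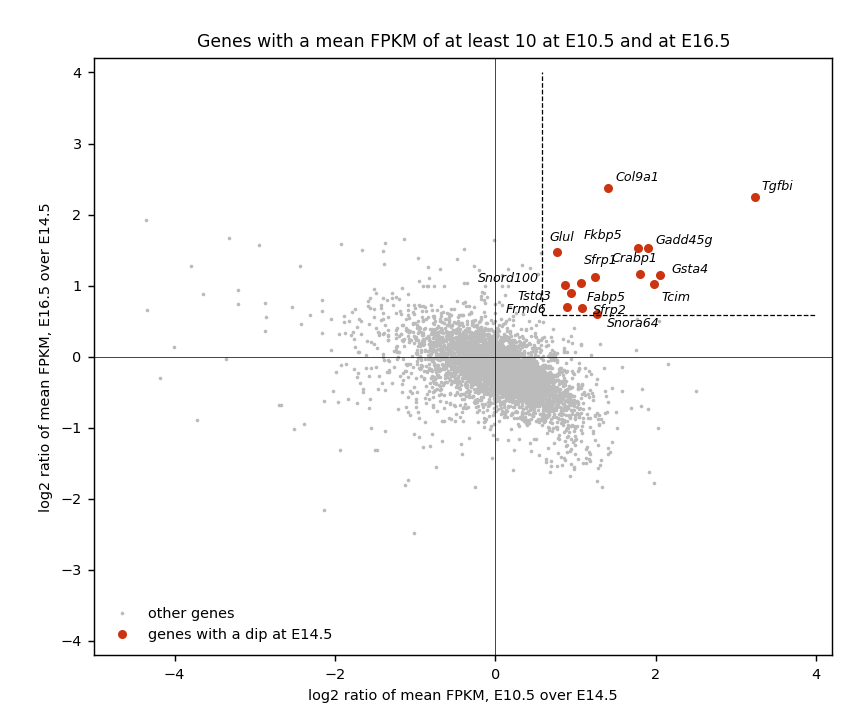
Ratio of mean FPKM at E10.5 over E14.5 (x axis, log2) against E16.5 over E14.5 (y axis, log2) for genes with means of at least 10 at E10.5 and E16.5, 1 point per gene. The dashed lines mark the ratio of 1.5, the 15 red points are the genes inside both lines, with Tgfbi and Col9a1 farthest out, and 1 gene lies outside the plotted range.

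The samples of E14.5 differed among themselves in their cell type markers, and replicate 1 stood apart in some of the lists. The summed FPKM of 6 corneal stroma markers was 4325 in replicate 1, against 1747 and 2053 in replicates 2 and 3. For 9 corneal epithelium markers the sums were 2271, 720 and 842 in the same order. At E16.5 the stroma sums ran from 5770 to 6293 and the epithelium sums from 5461 to 7901, and at E10.5 from 91.3 to 109.5 and from 39.2 to 53.3. In the stroma and epithelium lists replicate 1 therefore lay nearer to the E16.5 samples than the other E14.5 samples did. For red blood cell markers it lay farther, at 4415 against 2529 and 3081, with 1231 to 2665 at E16.5. So it did for macrophage markers, at 77.8 against 57.1 and 59.7, with 38.6 to 46.6 at E16.5. Corneal endothelium markers did not set replicate 1 apart, with 290, 279 and 342 in the E14.5 replicates. Neuronal markers summed to between 188.4 and 289.7 at E10.5 and to no more than 2.82 in any E14.5 sample. For vascular endothelial markers the sums were 108.6 to 173.3 at E10.5, then 47.2 to 88.4 at E14.5 and finally 22.8 to 35.9 at E16.5. The glia list was lowest in the middle stage, with sums of 28.5, 25.9 and 20.4 in the E14.5 replicates. Its E10.5 replicates had 63.3, 76.4 and 58.4, and its E16.5 replicates 37.9, 34.4 and 31.6. Genes within the glia list differed in shape. Mean FPKM of Fabp7 fell with age (33.9, 3.33 and 1.95), while that of Erbb3 rose (5.70, 11.1 and 23.0). None of the 12 marker lists examined held a gene with a dip, but few of their genes could meet the rule. Over the minimum level were 1 of 9 epithelium, 2 of 6 stroma and 1 of 5 endothelium markers. For lens, skeletal muscle, neurons and glia the number was 0. At a share of 0.251% over all genes at this level, the absence of a dip gene says little. The part of cell composition in the dips was not tested.

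In 8 of the 13 protein-coding genes replicate 1 had the highest E14.5 value, in 3 the lowest and in 2 the middle one. All 13 protein-coding genes had every E14.5 sample below every sample of E10.5 and E16.5. Among the 5968 genes, 49 or 0.821% had such a separation. The rule used these values, so the count is a description. Leaving out each of the 9 samples in turn, 9 of the 13 protein-coding genes always met the rule, while Tcim and Tstd3 did not meet it without E16.5 replicate 1, nor Frmd6 and Sfrp2 without E14.5 replicate 2.

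**Figure D2:**
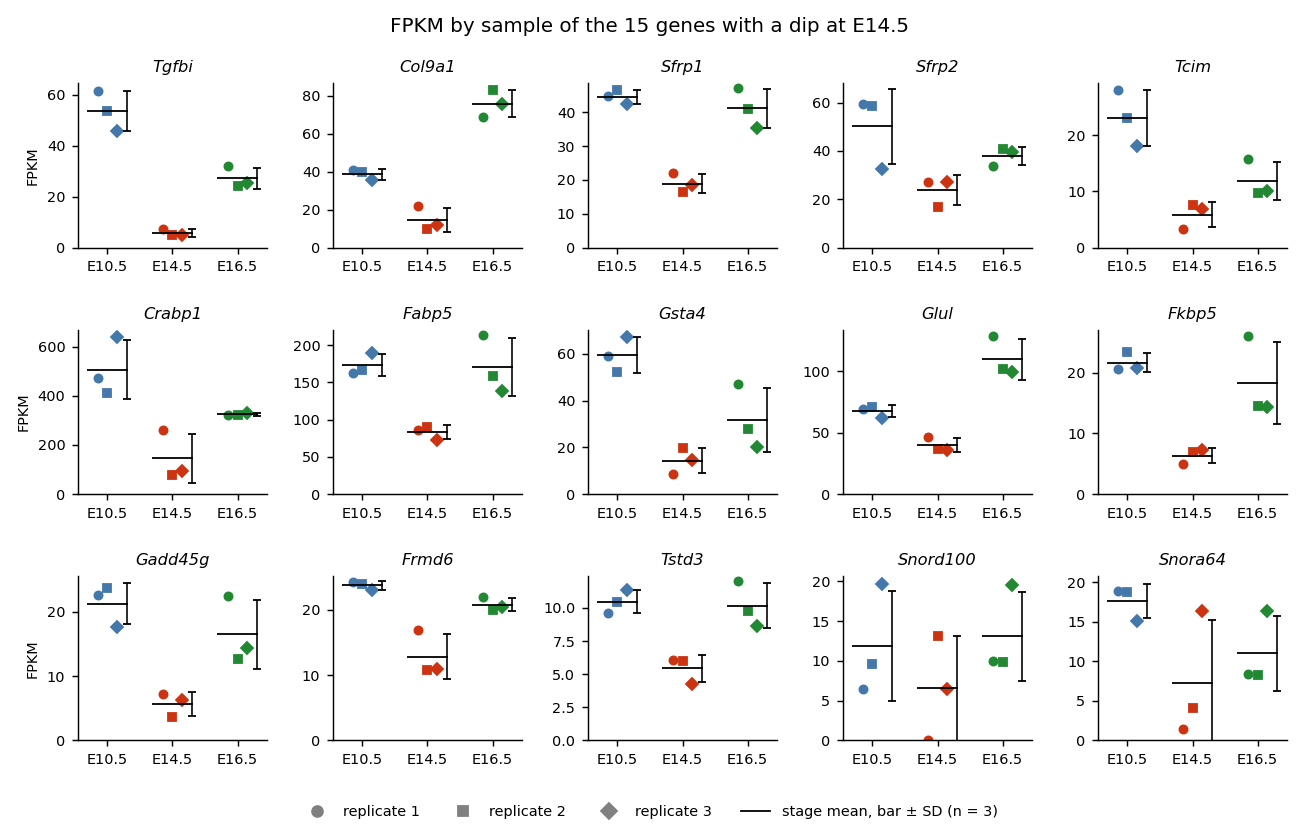
FPKM (y axes, from 0) by stage for each of the 15 genes, with 1 symbol per sample, a line at the stage mean and a bar of ± 1 SD (n = 3; the lower end of the bar is cut at 0 for the snoRNAs at E14.5). In the 13 protein-coding genes the 3 red E14.5 points lie below all other points, and in Snord100 and Snora64 they overlap them.

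Of the 15 genes, the matrix gene Tgfbi had the largest E10.5/E14.5 ratio and the matrix gene Col9a1 the largest E16.5/E14.5 ratio. Tgfbi encodes a secreted matrix protein with fasciclin domains, and its human mutations are a known cause of stromal corneal dystrophies. Its FPKM was 61.7, 53.6 and 45.9 in the 3 E10.5 samples, then 7.35, 4.95 and 4.84 at E14.5, and finally 31.9, 24.1 and 25.3 at E16.5. The E14.5 samples were thus far below all others, and every E10.5 sample was above every E16.5 sample. The mean was 53.7 ± 7.88 (SD, n = 3) before, 5.71 ± 1.42 during and 27.1 ± 4.21 after the dip, which gave ratios of 9.40 and 4.75 over E14.5. The smaller ratio ran from 4.32 to 5.54 when single samples were left out. Between E16.5 and E10.5, a comparison that the rule did not fix, the log2 fold change was -0.84 (SE, the standard error, 0.16, edgeR adjusted p 0.00064), short of the fold minimum of 1.

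Postn, the gene of periostin, is a relative of Tgfbi with the same kind of domains. Its FPKM had the opposite shape, with stage means of 16.7 ± 2.48, 68.4 ± 2.77 and 49.2 ± 2.84 (SD, n = 3) in order of age. Postn was called higher at E16.5 against E10.5, by 1.72 on the log2 scale (SE 0.11, edgeR adjusted p 3.18e-07). Most of the matrix genes examined did not have the shape of Tgfbi. Of 23 genes of fibrillar collagens and matrix found in the files, 16 were over the minimum level, 1 (Tgfbi) had a dip, and the median of the smaller ratio over the 16 was 0.297, against 0.803 over all genes at this level. Of the 23 tested between E16.5 and E10.5, 16 were called higher and 1 lower, where 19.4% of all genes tested were called higher and 15.4% lower.

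Col9a1 encodes a chain of type IX collagen, which lies on the surface of collagen fibrils. It measured 41.0, 39.8 and 35.5 FPKM at E10.5, then 21.9, 9.96 and 12.1 at E14.5 and finally 68.9, 83.0 and 75.6 at E16.5. The 3 stages did not overlap, and the E16.5 samples were the highest. Means were 38.7 ± 2.89 (SD, n = 3), 14.7 ± 6.38 and 75.8 ± 7.06, with ratios of 2.64 and 5.17 over E14.5. The spread at E14.5 came largely from replicate 1, and the smaller ratio was 3.51 without it. Col9a1 was called higher at E16.5 against E10.5 (log2 fold change 1.12, SE 0.23, edgeR adjusted p 0.00106), and it was the only one of the 14 genes tested that was called in either direction. With library totals, and with limma on log2 FPKM, its log2 difference was 0.95 to 0.97, just under the fold minimum, so the call was lost. With DESeq2 size factors in edgeR and with the DESeq2 Wald test it was 1.12, and the call was kept.

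The other chains of type IX collagen did not dip. Col9a3 had stage means of 2.92 ± 0.309, 19.4 ± 17.5 and 99.8 ± 15.3 FPKM (SD, n = 3) in order of age. Its E14.5 samples were at 39.3, 6.61 and 12.2, so replicate 1 was again the highest. Col9a2 had means of 8.12 ± 1.03, 9.54 ± 2.52 and 19.95 ± 3.11. Both were called higher at E16.5 against E10.5, Col9a3 by 5.24 (SE 0.57, edgeR adjusted p 1.26e-05) and Col9a2 by 1.45 (SE 0.20, edgeR adjusted p 7.19e-05) on the log2 scale. At E10.5 Col9a1 was the most abundant of the 3 chains per transcript length, and at E16.5 Col9a3 had the highest mean.

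**Figure D3:**
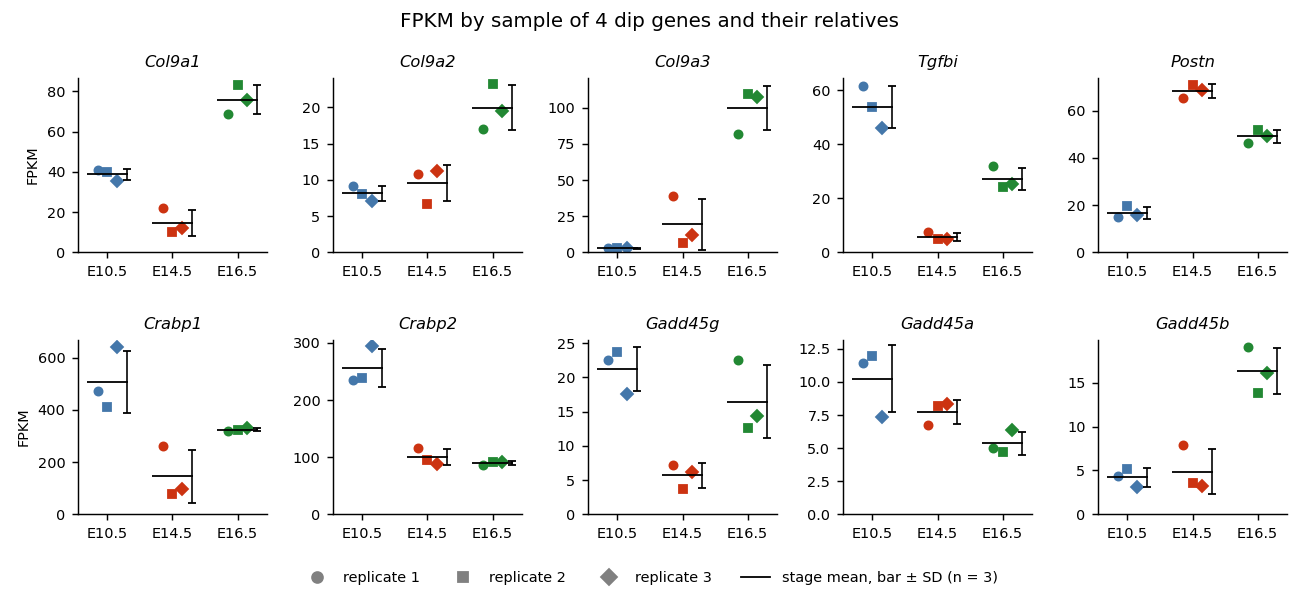
FPKM (y axes, from 0) by stage of Col9a1, Tgfbi, Crabp1 and Gadd45g and of the relatives Col9a2, Col9a3, Postn, Crabp2, Gadd45a and Gadd45b, with 1 symbol per sample, stage means as lines and bars of ± 1 SD (n = 3). The dips of the 4 genes are not seen in the relatives, of which Postn is highest at E14.5 and Col9a3 climbs from 2.92 to 99.8.

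Of the Wnt regulators, Sfrp1 and Sfrp2 encode secreted frizzled-related proteins, which bind Wnt ligands outside the cell. Sfrp1 (chr8:23411383-23449632) measured 44.8, 46.6 and 42.5 FPKM at E10.5, then 22.0, 16.4 and 18.4 at E14.5 and finally 47.1, 41.0 and 35.5 at E16.5. The E10.5 and E16.5 samples overlapped, and all lay above the E14.5 samples. Means were 44.6 ± 2.06 (SD, n = 3), 18.9 ± 2.86 and 41.2 ± 5.80, so the E14.5 mean was exceeded 2.36 times before and 2.18 times after. The log2 fold change between E16.5 and E10.5 was 0.03 with a standard error of 0.12 (edgeR adjusted p 0.827).

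Sfrp2 had 59.4, 58.8 and 32.4 FPKM at E10.5, then 27.3, 16.7 and 27.3 at E14.5 and finally 33.9, 40.8 and 39.6 at E16.5. Its E10.5 replicate 3 was close to the E14.5 range, and without E14.5 replicate 2 the smaller ratio was 1.40, under the threshold. With all samples the means were 50.2 ± 15.4 (SD, n = 3), 23.8 ± 6.11 and 38.1 ± 3.71, with ratios of 2.11 and 1.60. The log2 fold change between E16.5 and E10.5 was -0.25 (SE 0.24, edgeR adjusted p 0.367). Of the 4 listed genes with an Sfrp symbol, the 2 over the minimum level were the 2 with a dip. Family members under other symbols were not counted here. Sfrp4 and Sfrp5 were under 0.5 FPKM in every sample.

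Tcim (chr8:24437172-24438946) encodes a small protein known as a positive regulator of Wnt and β-catenin signaling. It measured 28.1, 23.1 and 18.2 FPKM at E10.5, then 3.29, 7.51 and 6.81 at E14.5 and finally 15.8, 9.72 and 10.1 at E16.5. All E10.5 samples were above all E16.5 samples, which were above all E14.5 samples. The means of 23.1 ± 4.95 (SD, n = 3), 5.87 ± 2.26 and 11.9 ± 3.42 gave ratios of 3.94 and 2.02. Here E14.5 replicate 1 was the lowest, and the smaller ratio was 1.66 without it. Without E16.5 replicate 1 the E16.5 mean was under 10 and the gene was no longer over the minimum level. Between E16.5 and E10.5 the log2 fold change was -0.81 (SE 0.28, edgeR adjusted p 0.021) and under the fold minimum, but -1.06 (adjusted p 0.0102) and called lower without E16.5 replicate 1. Tcim and Sfrp1 lie 0.988 Mb apart on chromosome 8. Of the 8 annotated genes between them, 1 was listed in the files and 0 were over the minimum level.

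Crabp1, the gene of a cytoplasmic protein that binds retinoic acid, was the most abundant of the 15 genes at every stage. Its FPKM was 472, 409.5 and 640 at E10.5, then 260.5, 79.1 and 95.7 at E14.5 and finally 320.5, 323 and 330 at E16.5. Replicate 1 of E14.5 was nearly at the level of the E16.5 samples and the other E14.5 samples were far lower. Means were 507 ± 119 (SD, n = 3), 145 ± 100 and 324.5 ± 4.89, with ratios of 3.50 and 2.24, and without E14.5 replicate 1 the smaller ratio was 3.71. The fold change between E16.5 and E10.5 was -0.50 on the log2 scale with a standard error of 0.36 (edgeR adjusted p 0.234). The related Crabp2 was lower in all E14.5 and E16.5 samples than at E10.5 and did not recover, with means of 257 ± 33.4, 100.1 ± 14.2 and 89.9 ± 3.35 (SD, n = 3). Crabp2 was called lower at E16.5 against E10.5 (log2 fold change -1.37, SE 0.12, edgeR adjusted p 2.31e-06).

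Fabp5 (chr3:10012585-10016610) encodes an intracellular carrier of fatty acids that can also bind retinoic acid. Its samples were at 163, 166 and 190 FPKM at E10.5, then 86.2, 89.8 and 72.1 at E14.5 and finally 214, 159 and 138 at E16.5. The E14.5 samples were close together and below the others, which overlapped. Means were 173 ± 14.8 (SD, n = 3), 82.7 ± 9.37 and 170 ± 38.9, so the ratios of 2.09 and 2.06 were almost the same on both sides. The log2 fold change between E16.5 and E10.5 was 0.13 (SE 0.14, edgeR adjusted p 0.454). Of 7 listed genes of fatty acid binding proteins, Fabp5 was the only one over the minimum level. Fabp7, by contrast, had means of 33.9 ± 3.69, 3.33 ± 1.05 and 1.95 ± 0.466 (SD, n = 3) and was called lower at E16.5 against E10.5 (log2 fold change -3.96, SE 0.24, edgeR adjusted p 2.91e-07). In the wider list of 20 genes of retinoid binding and metabolism, 11 were over the minimum level and 2 had a dip, Crabp1 and Fabp5. The median smaller ratio over the 11 was 0.892, and of 19 tested between E16.5 and E10.5, 4 were called higher and 6 lower, where 19.4% of all genes tested were higher and 15.4% lower.

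Gsta4 (chr9:78191966-78209349) encodes a glutathione transferase that clears products of lipid peroxidation. It measured 59.0, 52.1 and 67.5 FPKM at E10.5, then 8.77, 19.8 and 14.4 at E14.5 and finally 47.0, 27.7 and 20.3 at E16.5. The lowest E16.5 sample was close to the highest E14.5 sample. Means were 59.5 ± 7.67 (SD, n = 3), 14.3 ± 5.49 and 31.7 ± 13.8, with ratios of 4.16 and 2.21, and the smaller ratio was 1.68 without E16.5 replicate 1. Between E16.5 and E10.5 the log2 fold change was -0.77 (SE 0.29, edgeR adjusted p 0.0372), under the fold minimum, and without E16.5 replicate 1 it was -1.15 (adjusted p 0.00416) and called lower. The related Gsta2 and Gsta3 were under 3 FPKM on average at E10.5 and E14.5, and both were called higher at E16.5 against E10.5.

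Glul (chr1:153899929-153909723) encodes glutamine synthetase, which makes glutamine from glutamate and ammonia. Its samples were at 69.7, 71.1 and 61.9 FPKM at E10.5, then 46.4, 36.6 and 36.1 at E14.5 and finally 129, 102 and 99.2 at E16.5. The stages did not overlap, and like Col9a1 the gene was highest at E16.5. Means of 67.6 ± 4.94 (SD, n = 3), 39.7 ± 5.80 and 110.1 ± 16.7 gave ratios of 1.70 and 2.77. Glul passed the test between E16.5 and E10.5 but not the fold minimum (log2 fold change 0.85, SE 0.12, edgeR adjusted p 0.000108).

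Fkbp5 encodes a co-chaperone of steroid hormone receptors and is a known target of glucocorticoids. It measured 20.7, 23.5 and 20.8 FPKM at E10.5, then 4.87, 6.89 and 7.22 at E14.5 and finally 26.0, 14.4 and 14.3 at E16.5. Replicate 1 of E16.5 was the highest of all 9 samples and replicate 1 of E14.5 the lowest. Means were 21.7 ± 1.59 (SD, n = 3), 6.33 ± 1.27 and 18.3 ± 6.72, with ratios of 3.42 and 2.89. The log2 fold change between E16.5 and E10.5 was -0.10 (SE 0.22, edgeR adjusted p 0.695), and it turned to 0.04 or 0.05 when E16.5 replicate 2 or 3 was left out. Among 15 listed genes of FK506-binding proteins, 9 were over the minimum level and Fkbp5 alone met the rule. Its close relative Fkbp4 had means of 270 ± 8.08, 145 ± 16.6 and 87.7 ± 0.462 (SD, n = 3) and was called lower at E16.5 against E10.5 (log2 fold change -1.48, SE 0.10, edgeR adjusted p 4.67e-07).

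Gadd45g (chr13:51846675-51848475) belongs to a family of small proteins known to act in growth arrest and the response to stress. It had 22.5, 23.7 and 17.6 FPKM at E10.5, then 7.19, 3.64 and 6.22 at E14.5 and finally 22.5, 12.6 and 14.3 at E16.5. All E14.5 samples were below all others, and the other stages overlapped. The means were 21.3 ± 3.22 (SD, n = 3), 5.68 ± 1.83 and 16.47 ± 5.31, the ratios 3.74 and 2.90, and the log2 fold change between E16.5 and E10.5 -0.22 (SE 0.25, edgeR adjusted p 0.447). Gadd45b had means of 4.23 ± 1.08, 4.87 ± 2.61 and 16.3 ± 2.62 (SD, n = 3) and was called higher at E16.5 against E10.5 (log2 fold change 2.09, SE 0.31, edgeR adjusted p 0.00012). Gadd45a had means of 10.2 ± 2.54, 7.75 ± 0.904 and 5.35 ± 0.879.

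Gadd45g was 1 of 25 immediate early and related genes found in the files, of which 10 were over the minimum level and Gadd45g alone had a dip. The summed FPKM of this list varied more within E14.5 than between stage means, at 229.5, 545 and 1467 in replicates 1, 2 and 3. Gadd45g did not follow this order, since its lowest value was in replicate 2. The list's sums ran from 286 to 882 among the E10.5 samples and from 643 to 820 among the E16.5 samples. The median smaller ratio over the 10 genes was 0.902. Of 24 genes tested between E16.5 and E10.5, 5 were called higher and 1 lower, against the same shares of 19.4% and 15.4% over all genes tested.

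Frmd6 (chr12:70825456-70902234) encodes a FERM domain protein that acts upstream of the Hippo pathway. Its FPKM was 24.3, 24.0 and 23.1 at E10.5, then 16.9, 10.7 and 10.9 at E14.5 and finally 22.0, 20.03 and 20.4 at E16.5. The stages did not overlap, although E14.5 replicate 1 was near the E16.5 samples. Means were 23.8 ± 0.649 (SD, n = 3), 12.8 ± 3.49 and 20.8 ± 1.02, with ratios of 1.85 and 1.62, and without E14.5 replicate 2 the smaller ratio was 1.495, just under the threshold. The log2 fold change between E16.5 and E10.5 was -0.05 (SE 0.14, edgeR adjusted p 0.789).

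Tstd3 (chr4:21757382-21767211) encodes a protein with a thiosulfate sulfurtransferase-like domain. It was the gene closest to the minimum level, with 9.61, 10.47 and 11.3 FPKM at E10.5, then 6.09, 5.98 and 4.25 at E14.5 and finally 12.01, 9.80 and 8.66 at E16.5. The E10.5 and E16.5 samples overlapped and all lay above the E14.5 samples. Means were 10.47 ± 0.860 (SD, n = 3), 5.44 ± 1.03 and 10.2 ± 1.70, and the ratios 1.92 and 1.87. The log2 fold change between E16.5 and E10.5 was 0.11 (SE 0.17, edgeR adjusted p 0.591). The ends of Tstd3 overlap Ccnc and Usp45, which lie on the opposite strand. Whether the libraries kept strand is not given in the sources used here, so reads from these overlaps cannot be told apart.

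**Figure D4:**
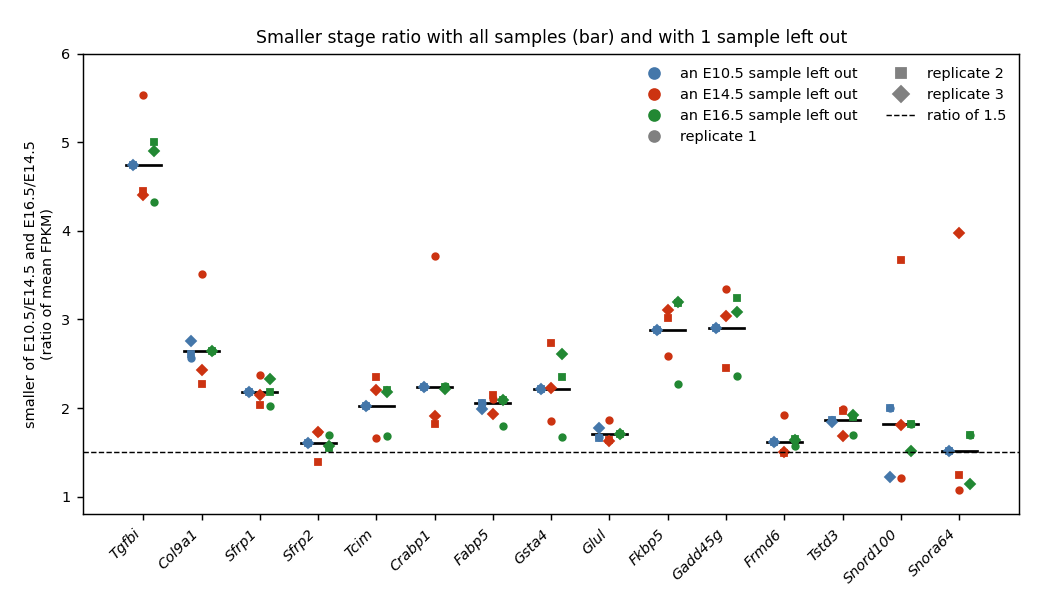
Smaller of the E10.5/E14.5 and E16.5/E14.5 ratios of mean FPKM (y axis) for each of the 15 genes, with all samples (black bars) and with 1 of the 9 samples left out (colored symbols), against the threshold of 1.5 (dashed line). Tgfbi stays above 4.32 throughout, while Snora64 runs from 1.08 to 3.98 and Snord100 from 1.21 to 3.67.

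The 2 snoRNAs met the rule on a handful of counts. These short RNAs guide the chemical modification of ribosomal RNA and lie in introns of ribosomal protein genes, Snord100 in Rps12 and Snora64 in Rps2, on the strand of the host. Snord100 is a box C/D snoRNA, a class that guides ribose methylation, and Snora64 a box H/ACA snoRNA, a class that guides pseudouridylation. Their transcripts in GENCODE M21 (GRCm38) are printed 5′ to 3′ to show how short they are. Snord100 lies at chr10:23785750-23785823 on the minus strand (74 bases) and Snora64 at chr17:24720772-24720905 on the plus strand (134 bases). The lengths deposited with the FPKM differ slightly, at 70 bases for Snord100 and 117 for Snora64.
Snord100: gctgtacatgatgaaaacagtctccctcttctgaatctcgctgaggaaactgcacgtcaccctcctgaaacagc
Snora64: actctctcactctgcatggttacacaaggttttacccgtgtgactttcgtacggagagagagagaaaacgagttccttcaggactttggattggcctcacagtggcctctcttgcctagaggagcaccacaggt
Snord100 had expected counts of 2, 3 and 6 at E10.5, then 0, 4 and 2 at E14.5 and finally 3, 3 and 6 at E16.5. These became 6.44, 9.57 and 19.7, then 0, 13.2 and 6.48, then 9.94, 9.83 and 19.6 FPKM. The stages overlapped, and without E14.5 replicate 1, where none was counted, the smaller ratio was 1.21 in place of 1.82. A count of 0 in 1 library allows up to 3 counts, as many as several of the other samples held, so the difference was not detectable at this depth. Snora64 had counts of 14, 14 and 11 at E10.5, then 1, 3 and 12 at E14.5 and finally 6, 6 and 12 at E16.5. Its E14.5 replicate 3 was above samples of both other stages, and the smaller ratio was 1.51 with all samples and 1.08 without replicate 1. Snord100 was under the count filter and was not tested, and Snora64 had a log2 fold change between E16.5 and E10.5 of -0.52 (SE 0.58, edgeR adjusted p 0.441). Libraries made from polyadenylated RNA recover such transcripts poorly. The hosts did not dip, with mean FPKM of 1865, 1463 and 1474 for Rps12 and of 1898, 1084 and 951 for Rps2, in order of age.

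Whether the genes returned to their earlier level was asked by comparing E16.5 with E10.5, which the rule left free within its limits. Of the 15 genes 14 could be tested, and 1, Col9a1, was called higher, 0 were called lower and 13 were not called, at an edgeR adjusted p under 0.05 with a log2 fold change of 1 or more in size. The share called, 7.14%, compares with 16.2% of the 5962 tested genes that were also over the minimum level at both stages, of which 7.13% were higher and 9.06% lower. Over all 14771 genes tested, 34.8% were called. With so few genes the shares are a description. At an unadjusted p under 0.05, 3 of the 14 were lower at E16.5 and 2 higher, DESeq2 called 0 lower and 1 higher, and limma on log2(FPKM + 1) called 0 in either direction. Regardless of the fold minimum, 5 of the 14 had an adjusted p under 0.05, Col9a1 and Glul being higher at E16.5 and Tgfbi, Tcim and Gsta4 lower. The shares over all genes given above hold for calls with the fold minimum. None is given for a p cutoff alone, so those counts are a description only. A p that misses the threshold does not show that the earlier level was regained.

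By sample, 5 of the 13 protein-coding genes had every E10.5 value above every E16.5 value, 2 (Col9a1 and Glul) had the reverse, and in 6 the stages overlapped. The mean FPKM was higher at E10.5 in 11 of the 13. No share over all genes at this level is given here for these counts, so they are a description only. With TMM factors, Sfrp1, Fabp5 and Tstd3, among those 11, had log2 fold changes slightly above 0, at 0.03, 0.13 and 0.11. Since FPKM depends on the rest of the library, the scaling moves these values together: with library totals in place of TMM factors, the log2 fold changes of all genes between E16.5 and E10.5 shifted by a median of -0.15. Under that scaling the signs of Sfrp1, Fabp5 and Tstd3 turned, all with values within 0.13 of 0 either way.

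**Figure D5:**
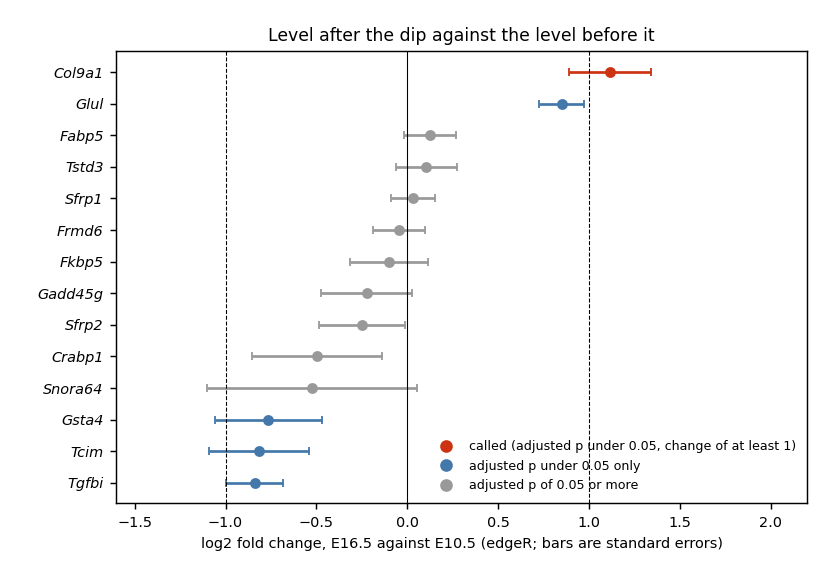
Log2 fold change of E16.5 against E10.5 (x axis; edgeR, bars are standard errors) for the 14 genes tested, ordered by value. Col9a1 at 1.12 is past the dashed line at 1, Glul, Gsta4, Tcim and Tgfbi lie between the dashed lines with an adjusted p under 0.05, and the other 9 genes have an adjusted p of 0.05 or more.

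The genes did not all share a location or a list, although Crabp1 and Fabp5 were both in the retinoid list. Apart from Sfrp1 and Tcim, the closest neighbors on a chromosome were Snora64 and Fkbp5, 3.68 Mb apart on chromosome 17, and Gadd45g and Tgfbi, 4.76 Mb apart on chromosome 13. The median transcript length of the 13 protein-coding genes was 2001 bases (741 to 4695), against 2592 for the 5855 protein-coding genes over the minimum level. No list of Wnt genes was among the 23 function lists examined. Of these lists, 3 held a gene with a dip, those of matrix, retinoid and immediate early genes. The lists of the cell cycle, cytosolic ribosomal proteins, respiratory chain, heat shock genes and histones, among others, held none. In the 32 cytosolic ribosomal protein genes the median smaller ratio was 0.934.

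Just inside the threshold lay Snora64, with a smaller ratio of 1.51, Sfrp2, with 1.60, and Frmd6, with 1.62. Just outside it were Crip1, with 1.48, and Cdkn1c and Col2a1, with 1.44 each. By level, Tstd3 was just inside with 10.2 FPKM at E16.5. Eno3 and Tle2 had ratios that would have met the rule but fell short of 10, Eno3 with a mean of 9.17 at E16.5 and Tle2 with stage means of 9.28, 2.50 and 8.70 in order of age.

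Leaving out E14.5 replicate 1 raised the number of genes that met the rule from 15 to 23, since 10 joined and the 2 snoRNAs left. In all 10 that joined, replicate 1 had the highest E14.5 value. This was nearly fixed in advance, since a gene can join only if its E14.5 mean falls without replicate 1. Among them were Crip1, the gene of a small LIM domain protein, with 26.2, 7.38 and 6.50 FPKM at E14.5 against 18.7 to 21.5 at E10.5, and Cdkn1c, a cyclin-dependent kinase inhibitor, with 191, 106.5 and 111.1 at E14.5. Vim, the gene of the intermediate filament vimentin, had 468, 248 and 287 FPKM at E14.5, where the E10.5 samples held 396 to 483 and the E16.5 samples 776 to 808. Replicate 1 was thus within the E10.5 range for Vim and the other E14.5 samples below it.

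Since the rule used all 9 samples, it was also applied with each E14.5 sample left out and the genes found were then looked at in that sample alone, against the same E10.5 and E16.5 samples. Of the 23 genes found without E14.5 replicate 1, 9 met both ratios in replicate 1, where 26 or 0.436% of the 5968 genes did so. Of the 16 found without replicate 2, 11 met them in replicate 2, against 37 or 0.62% of all, and of the 21 found without replicate 3, 13 met them in replicate 3, against 25 or 0.419%. The left-out sample thus showed the dip for most of the genes when it was replicate 2 or 3 and for the minority when it was replicate 1. The E10.5 and E16.5 samples are shared by both steps, so the E14.5 sample is the only independent measure here. The genes found were picked for high E10.5 and E16.5 means over the remaining E14.5 samples, while the 5968 genes were not. Much of the gap to the share over all genes is therefore built in, and the shares are a description.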

How the data were processed

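RNA was measured in 9 wild-type mouse samples, 3 at each of 3 stages. Per the labels and the methods, the authors selected mRNA with oligo-dT beads, sequenced it on an Illumina HiSeq instrument, mapped reads to reference genes with Bowtie2 and to GRCm38 with HISAT, and quantified genes with RSEM. Tool versions are not given in the sources used here. The deposited tables hold an expected count per gene, which is not normalized, and an FPKM value that the authors derived from it. Genes not listed in a sample were taken as 0.

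The rule was applied to the deposited FPKM. Expected counts were rounded, filtered with filterByExpr, scaled with TMM (factors 0.918 to 0.94 at E16.5 and 1.01 to 1.06 elsewhere) and fitted over all 9 samples with the quasi-likelihood test of edgeR 4.0.16 in R 4.3.3, without a replicate block. The E16.5 and E10.5 stages were compared, with Benjamini-Hochberg adjustment over all 14771 genes tested, and a call needed an adjusted p under 0.05 and a log2 fold change of 1 or more in size. E14.5 was not tested against the other stages, because the rule had used those values. Alternatives were DESeq2 1.42.0, limma 3.58.1, other scalings, filters and thresholds, and leaving out each sample. The edgeR script was tested on simulated data. All genes that met the rule are named. The members, the relatives and the gene lists were chosen with earlier results of these data known. Symbols and coordinates came from RefSeq for 19312 of 19369 identifiers. At totals of 8745161 to 9069023 counts per sample, counting error is largest for the snoRNAs. Some protein-coding genes also had low counts at E14.5, down to 34 for Gadd45g and 38 for Tcim, where it is not negligible. The spread of 3 samples also limits precision.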

Additional observations from a re-analysis of the deposited data

How the results depend on the processing

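The number of genes that met the rule, 15, was 14 to 23 when single samples were left out, the highest without E14.5 replicate 1. It was 36 with FPKM rescaled to TPM, 30 with a minimum level of 5, 9 with a minimum of 20, 699 with no minimum and 9 with a ratio of at least 2. TPM raises every value by one factor per sample, so the minimum admits more genes. With the other settings tried (FPKM divided by TMM factors, TMM-scaled counts, a pseudocount of 1, stage medians, and, chosen after seeing the data, transcripts of at least 200 bases) it was 13 to 19. The number of genes with every E14.5 sample below the others, 13, was 12 to 21 with single samples left out and 25 with TPM. For the single genes, 208 of 210 recomputed ratios moved by less than the spread between samples and 2 moved by more. A gene with a wide spread stays within it easily, so this count is a description. Snora64, at 1.51 with all samples, counted as within it at 1.08 without E14.5 replicate 1 and at 3.98 without E14.5 replicate 3.

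The count of genes called higher at E16.5 against E10.5, 1 (Col9a1), was 0 with library totals, 0 with limma on log2(FPKM + 1), 0 with limma on log2(FPKM + 0.1) and 2 with no fold minimum. The count called lower, 0, was 0 to 2 with single samples left out (Gsta4 and Tcim without E16.5 replicate 1) and 3 with no fold minimum. Some values near 0 changed sign. With library totals, Sfrp1 was at -0.12, Fabp5 at -0.0223 and Tstd3 at -0.0441 on the log2 scale. With limma and a pseudocount of 1 they were at -0.12, -0.0425 and -0.0482, and with 0.1 at -0.12, -0.0428 and -0.0532. Leaving out single samples, Sfrp1 ran from -0.0632 to 0.1333, Fabp5 from -0.0576 to 0.2610, Tstd3 from -0.0201 to 0.2132 and Fkbp5 from -0.4316 to 0.0510. The causes were not tested. Depth limits the snoRNAs.

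Samples that share a replicate number did not deviate together: the correlation of their deviations from the stage means ran from -0.256 to 0.216 over 9 pairs, so the numbers do not pair samples. With the replicate block 1 gene was called higher and 0 lower, as without it, and Col9a1 was at 1.13.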

Other observations

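Some genes outside the 15 met the rule only under another setting, and their values are given as a description. They were chosen after their values were seen. With a minimum mean of 5 FPKM, 15 more genes met the rule. Among them were Tle2, a Groucho-type co-repressor, with means of 9.28, 2.50 and 8.70 FPKM in order of age, and Arg1 (arginase), Cyp27a1 (sterol 27-hydroxylase), Hpgd (prostaglandin dehydrogenase), Nfil3, Col13a1 and L1cam.

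Leaving out E14.5 replicate 3, 6 genes joined and none of the 15 left. Of these 4 were genes of rapid transcriptional responses, namely Jun, Dusp1, Ier2 and Ppp1r15a. Jun had 140, 106.8 and 46.7 FPKM at E10.5, then 13.2, 40.1 and 127 at E14.5 and finally 76.0, 61.7 and 54.1 at E16.5. Dusp1 had 46.8, 34.8 and 9.84 FPKM at E10.5, then 2.87, 9.40 and 31.3 at E14.5 and finally 17.5, 17.6 and 13.9 at E16.5. For both genes replicate 3 was the highest E14.5 sample and replicate 1 the lowest. Crip1, Cdkn1c and Vim, which joined without replicate 1, were highest in replicate 1. A gene joins only if the left-out E14.5 sample is above the mean of the others, so a high value in that sample is built in.

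Col2a1, the gene of the type II collagen on which type IX collagen lies, was just under the ratio threshold. It had 178, 159 and 115 FPKM at E10.5, then 44.5, 34.3 and 54.3 at E14.5 and finally 45.8, 76.5 and 69.6 at E16.5. Eya2, a transcriptional co-activator of cranial development, had means of 38.8 ± 5.52, 9.47 ± 0.233 and 13.4 ± 0.419 FPKM (SD, n = 3), with a smaller ratio of 1.42. Both met the rule with FPKM divided by the TMM factors.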
